A study of Mus with 17 samples.

Results

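The basement membrane transcripts described here are 4 of the 45780 transcript identifiers listed in the files: Col4a1 (ENSMUST00000033898), Col4a2 (ENSMUST00000033899), Lamc1 (ENSMUST00000027752) and Nid1 (ENSMUST00000005532). They were chosen by identifier, and the gene names come from the list of members, since the files hold none. All 4 were listed in every library, and all 4 passed the filter on low values, which kept 29983 transcripts.

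A basement membrane is a thin sheet of matrix that underlies the endothelium and surrounds each smooth muscle cell of an artery. Its scaffold is a laminin network that cells assemble at their surface and a type IV collagen network that is crosslinked and carries tension. Col4a1 and Col4a2 encode the chains of the most widespread type IV collagen, which combine in a shared trimer, and the genes are transcribed in opposite directions from a common promoter region. Lamc1 encodes the gamma chain found in most laminins. Nid1 encodes nidogen, a linker that binds both laminin and type IV collagen.

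RNA was taken from abdominal aortas of C57BL/6 mice of WT genotype. Control mice (n = 5) received saline and double distilled water. AngII mice (n = 6) received angiotensin II, a vasoconstrictor hormone used to raise blood pressure, at 500 ng/kg/min, together with double distilled water. AngII+neferine mice (n = 6) received the same angiotensin II and neferine, an alkaloid of lotus seed, at 1 mg/kg/day. All treatments lasted 42 days, and age is not given in the labels used here. The labels do not say how many animals a library holds, so p-values measure the spread between these 17 libraries. The values are a linear abundance signal per transcript whose unit is not named, so levels of different genes were not ranked against each other. The read depth is unknown.

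The tissue was not checked against markers of aortic cell types, because no table used here pairs the other identifiers with names. A total of 3 libraries stood apart. The values of AngII replicate 6 correlated least with those of other libraries (median rho 0.455, Spearman, against 0.606 to 0.680). In AngII replicate 2 and AngII+neferine replicate 1 the 10 highest transcripts held 31.0% and 29.0% of the signal, against 10.6% to 21.8% elsewhere. The group differences are therefore given with and without them. The AngII+neferine files also list a different set of transcripts (41642 against 43752), so effects of neferine cannot be told apart from those of its separate set of files.

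Type IV collagen was the most variable of the components in treated aortas and the most even in saline aortas. Col4a1 had a signal of 226, 270, 249, 239 and 243 in Control replicates 1, 2, 4, 5 and 6. In AngII replicates 1 to 6 it was 221, 112, 423, 376, 103 and 183. With neferine it was 189, 289, 341, 167, 157 and 288 in replicates 1 to 6. The 5 Control libraries lay inside the ranges of both treated groups, and the highest AngII library was 4.12 times the lowest, against 1.20 times in Control. The means were nearly level: Control averaged 245 ± 16.1 (SD, n = 5), the AngII libraries 236 ± 135 (SD, n = 6) and the AngII+neferine libraries 238 ± 77.2 (SD, n = 6).

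Col4a2, the partner chain, had a signal of 190, 232, 213, 188 and 204 in the Control libraries in the same order. In AngII replicates 1 to 6 it was 178, 93.8, 401, 362, 245 and 261. With neferine it was 150, 246, 324, 335, 139 and 254. Again both treated groups extended above and below Control, with AngII replicate 2 lowest and AngII replicate 3 highest of all 17 libraries. Control averaged 205 ± 18.0 (SD, n = 5), the AngII+neferine libraries 241 ± 83.2 (SD, n = 6) and the AngII libraries 257 ± 114 (SD, n = 6), in rising order, with gaps smaller than the SD of either treated group. AngII replicates 3 and 4 were the 2 highest libraries of the study for both collagen chains.

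Lamc1, the laminin chain, was more even across the study. Its signal was 60.2, 61.6, 49.7, 46.4 and 59.3 in the Control libraries. In AngII replicates 1 to 6 it was 52.8, 37.8, 67.6, 59.4, 61.8 and 26.7. With neferine it was 28.2, 53.2, 59.8, 62.3, 50.4 and 53.2. The 3 lowest values of the study were those of AngII replicate 6, AngII+neferine replicate 1 and AngII replicate 2, the libraries that stand apart from the rest. Control averaged 55.5 ± 6.91 (SD, n = 5), the AngII libraries 51.0 ± 15.7 (SD, n = 6) and the AngII+neferine libraries 51.2 ± 12.1 (SD, n = 6), all within the SD of each other.

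Nid1, the linker, had a signal of 34.8, 63.4, 39.0, 42.3 and 60.3 in the Control libraries. In AngII replicates 1 to 6 it was 44.1, 40.7, 78.2, 65.2, 48.7 and 22.8. With neferine it was 35.5, 62.9, 63.0, 70.7, 50.5 and 83.5. The lowest library was AngII replicate 6 and the highest AngII+neferine replicate 6, and the groups overlapped throughout. Control averaged 47.9 ± 13.0 (SD, n = 5), the AngII libraries 49.9 ± 19.4 (SD, n = 6) and the AngII+neferine libraries 61.0 ± 16.5 (SD, n = 6), and the highest mean exceeded the others by less than the SD within the AngII+neferine group.

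**Figure D1:**
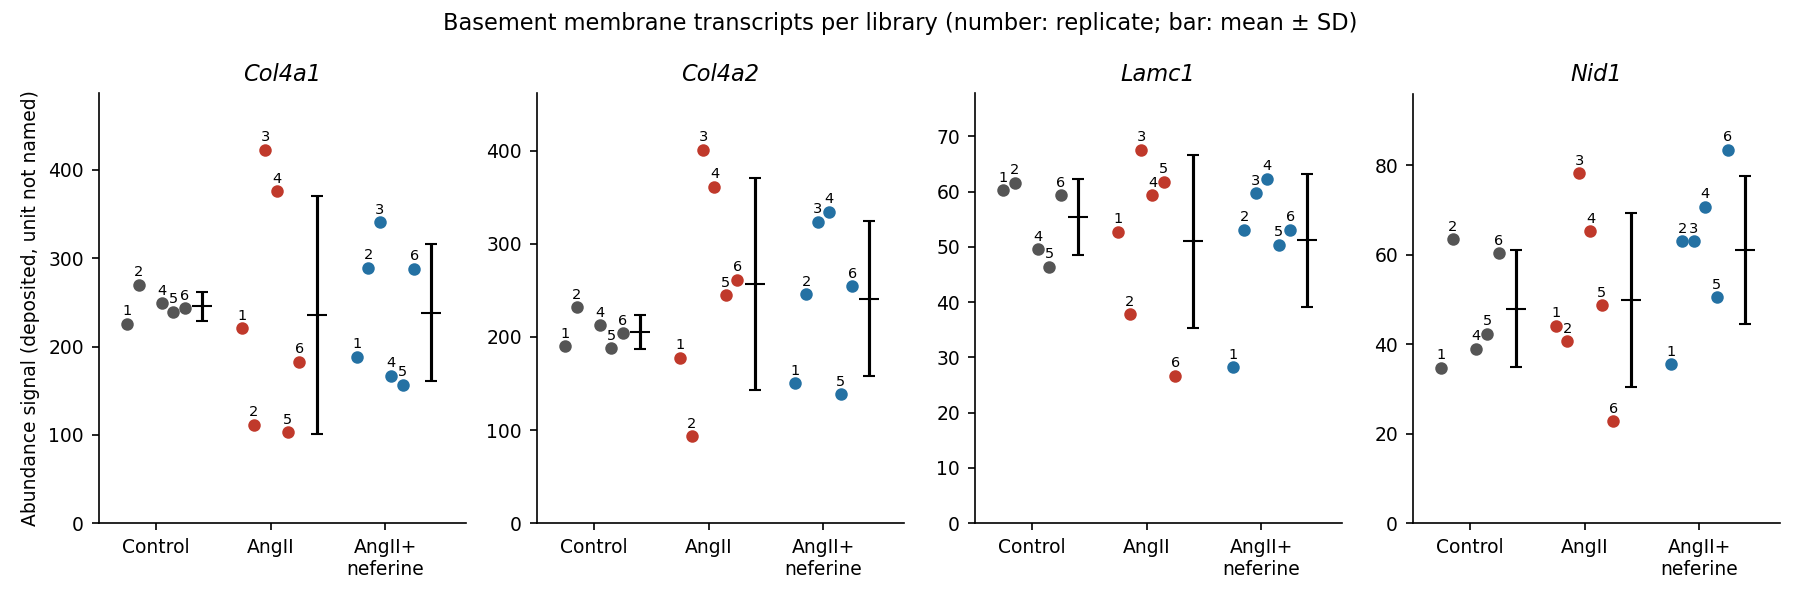
Abundance signal (vertical axis, linear from 0) of the 4 transcripts in each library, by group; numbers are replicates and bars are mean ± SD. The Control libraries of Col4a1 lie between 226 and 270, inside the AngII range of 103 to 423 and the AngII+neferine range of 157 to 341.

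AngII was compared with Control to see which components of the basement membrane differ after angiotensin II. No difference was detected in any of the 4 (limma, adjusted over all 29983 transcripts), and their directions were mixed. The log2 difference in Col4a1 was -0.26 ± 0.34 (SE; limma, adjusted p = 0.875), with a 95% interval of -0.97 to 0.46. For Col4a2 it was 0.18 ± 0.33 (SE; limma, adjusted p = 0.910), with an interval of -0.51 to 0.87. For Lamc1 the interval was -0.68 to 0.33 and for Nid1 -0.60 to 0.60, around differences of -0.17 and 0.00021 (limma, adjusted p = 0.883 and 1.00). Without the 3 libraries that stand apart the differences were 0.00074 for Col4a1, 0.46 for Col4a2, 0.12 for Lamc1 and 0.30 for Nid1 (limma, adjusted p from 0.728 to 1.00). Leaving out AngII replicate 2 alone moved Col4a2 to 0.44, leaving out AngII replicate 5 moved Col4a1 to -0.06 and leaving out AngII replicate 6 moved Lamc1 to -0.0064. On the fold scale of value + 1, the Col4a2 interval ran from 0.702 to 1.83 times Control and the Lamc1 interval from 0.622 to 1.26 times. Limma called 0 of 4 members in a table where it called 0% of transcripts, and 0 of 4 had an unadjusted p under 0.05 where 7.25% of all transcripts (2175) did. None of the 4 had groups that did not overlap, against 0.807% of transcripts. The median of the 4 differences was -0.09, beside -0.03 over all transcripts tested.

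AngII+neferine was compared with AngII to see what differs when neferine is added. Nid1 had the largest difference of the 4, 0.33 ± 0.27 (SE) on the log2 scale with an interval of -0.24 to 0.91, which did not pass (limma, adjusted p = 0.952). Without AngII replicate 6, its lowest library, the difference was 0.13 (limma, adjusted p = 0.982). For Col4a1, Col4a2 and Lamc1 the differences were 0.15, -0.02 and 0.03, with intervals of -0.53 to 0.84, -0.68 to 0.63 and -0.46 to 0.51 (limma, adjusted p from 0.979 to 0.998). Without the 3 libraries that stand apart the differences of Col4a1, Col4a2, Lamc1 and Nid1 were -0.05, -0.18, -0.11 and 0.18 (limma, adjusted p from 0.894 to 0.989). Limma again called 0 of 4 members and 0% of transcripts, and 0 of 4 had an unadjusted p under 0.05, where 5.22% of all transcripts (1564) did. The groups overlapped for all 4, while 0.263% of transcripts had groups that did not. The median of the 4 was 0.09, beside -0.0042 over all transcripts.

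AngII+neferine was compared with Control, with which the preceding comparison shares its neferine libraries and the one before it its Control libraries. Nid1 had a log2 difference of 0.33 ± 0.29 (SE), with an interval of -0.27 to 0.94 (limma, adjusted p = 0.788). Without the 3 libraries that stand apart, it was 0.48 with an interval of 0.03 to 0.92, an unadjusted p of 0.0376 and an adjusted p of 0.415 by limma. Col4a1, Col4a2 and Lamc1 differed by -0.10, 0.16 and -0.15, with intervals of -0.82 to 0.61, -0.53 to 0.85 and -0.66 to 0.36 (limma, adjusted p from 0.901 to 0.957). Without the same 3 libraries these were -0.05, 0.28 and 0.01 (limma, adjusted p from 0.738 to 0.980). Here limma called 0 of 4 members and 0.0367% of transcripts (11). At an unadjusted p under 0.05 there were 0 of 4, against 8.74% of all transcripts (2622), and 0 of 4 had groups that did not overlap, against 2.08%. The median of the 4 was 0.03, beside -0.03 over all transcripts. The exact permutation test of each member (two-sided, unadjusted) gave p-values between 0.203 and 1 in the 3 comparisons.

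**Figure D2:**
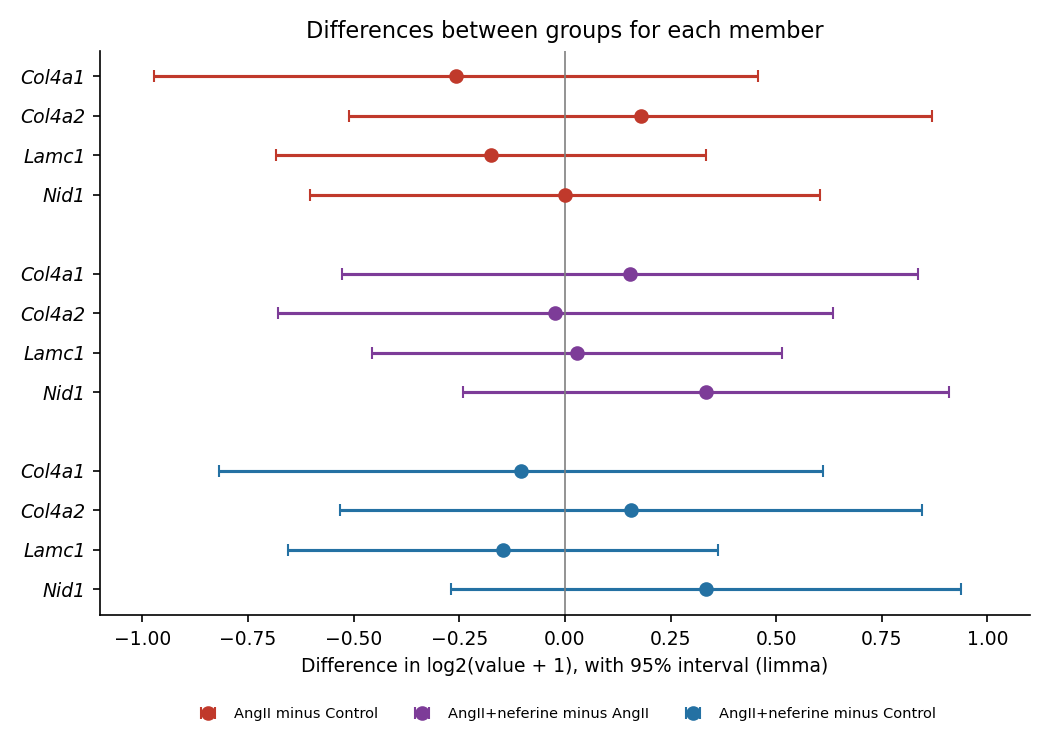
Difference in log2(value + 1) (horizontal axis) for each transcript in the 3 comparisons, as points with 95% limma intervals. All 12 intervals include 0, and the interval of Col4a1 between AngII and Control runs from -0.97 to 0.46.

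Of the 4 transcripts, the collagen chains had the lowest spread between libraries in Control and the highest in both treated groups, a pattern that Lamc1 shared in part. In Control the SD of log2(value + 1) was 0.0934 for Col4a1 and 0.124 for Col4a2, and only 2.04% and 4.33% of the tested transcripts had a lower SD. Among the 1456 transcripts with a mean signal of at least 40 those shares were 3.71% and 8.65%. In AngII the SD was 0.851 for Col4a1 and 0.761 for Col4a2, above the median of 0.614 over all tested transcripts, and with neferine it was 0.475 and 0.541, around the median of 0.520. For Lamc1 the SD was 0.182 in Control, where 11.2% of the tested transcripts had a lower SD, 0.502 in AngII and 0.406 with neferine. For Nid1 it was 0.379, 0.603 and 0.421. The increase in SD from Control to AngII was 0.76 for Col4a1 and 0.64 for Col4a2. That exceeded the increase of 94.7% and 92.3% of the tested transcripts, whose median increase was 0.0902. For Lamc1 and Nid1 the increase was 0.32 and 0.22, exceeding that of 77.2% and 67.6%. The SD within AngII was less unusual. There Col4a1 and Col4a2 exceeded 67.5% and 61.6% of the 1456 transcripts with a mean signal of at least 40. The median SD of those transcripts itself rose, from 0.320 in Control to 0.635 in AngII, so higher SDs in AngII were general at that level. The increases of the 4 members were ranked over all tested transcripts only, and not among those 1456. The increases of Col4a1 and Col4a2 thus also reflect the low SD of both chains in Control.

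Leaving out the 3 libraries that stand apart separated the 4 transcripts further. The SD in the 4 AngII libraries left was 0.925 for Col4a1 and 0.537 for Col4a2 but 0.146 for Lamc1 and 0.374 for Nid1, against 0.405 for the median transcript. The Col4a1 value rests on AngII replicate 5, without which it was 0.498 over 3 libraries, beside 0.636 for Col4a2. With neferine the SD over 5 libraries was 0.509, 0.508, 0.127 and 0.261 in the same order as before. Lamc1 and Nid1 were thus no more variable in treated than in Control libraries once these 3 libraries were left out, whereas both collagen chains were. The contrast depends in part on which libraries were left out. Those 3 hold the 3 lowest Lamc1 values of the study and the lowest Nid1 value of each treated group. The highest and lowest Col4a1 libraries of the study, AngII replicates 3 and 5, stayed in. The spread is given as a description and was not tested. In tissue RNA, fewer cells of a type and less RNA per cell cannot be told apart.

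**Figure D3:**
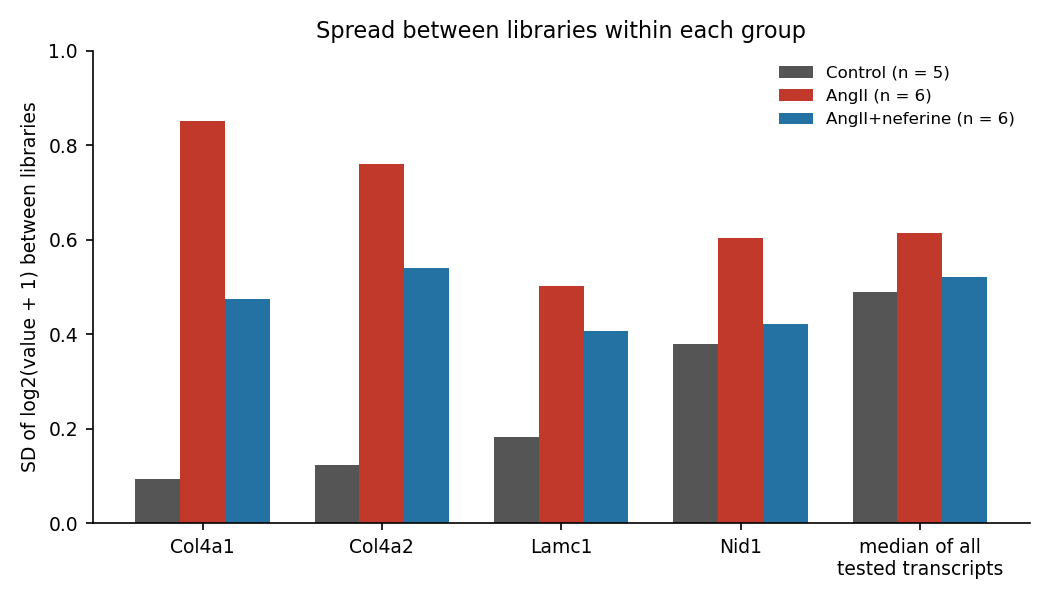
SD of log2(value + 1) between the libraries of a group (vertical axis, from 0) for the 4 transcripts and for the median of all 29983 tested transcripts. Col4a1 and Col4a2 have the lowest bars in Control, 0.0934 and 0.124, and the highest in AngII, 0.851 and 0.761.

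Because the collagen chains are made as partners, their ratio within a library was examined, which does not depend on how that library was scaled. In the Control libraries the Col4a1 to Col4a2 ratio was 1.19, 1.16, 1.17, 1.27 and 1.19. In AngII replicates 1 to 6 it was 1.24, 1.19, 1.05, 1.04, 0.420 and 0.699. With neferine it was 1.25, 1.18, 1.05, 0.498, 1.13 and 1.13. In 14 libraries the ratio lay between 1.04 and 1.27, while the Col4a2 signal of the same libraries ranged from 93.8 to 401. The other 3, AngII replicates 5 and 6 and AngII+neferine replicate 4, had ratios of 0.420 to 0.699. In AngII replicate 5 and AngII+neferine replicate 4 the Col4a2 signal was 245 and 335, above every Control library, whereas the Col4a1 signal was 103 and 167, below every Control library.

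The mean log2 ratio was 0.26 in Control, -0.18 in AngII and -0.0017 with neferine. The difference between AngII and Control was -0.44 (two-sided exact permutation test, p = 0.0649, adjusted over 3 comparisons 0.195), that between AngII+neferine and Control was -0.26 (exact permutation p = 0.143, adjusted 0.214) and that between AngII+neferine and AngII was 0.18 (exact permutation p = 0.563, adjusted 0.563). None passed. Without the 3 libraries that stand apart the differences were -0.46, -0.33 and 0.14 in the same order (exact permutation p = 0.0794, 0.0238 and 0.571, adjusted 0.119, 0.0714 and 0.571). Leaving out AngII+neferine replicate 1 alone gave the same -0.33 and p for the second. Leaving out AngII replicate 1 or 2 gave -0.54 or -0.53 for the first (exact permutation p = 0.0397 for each, adjusted 0.119). Without AngII replicate 5 the first was -0.22, and without AngII+neferine replicate 4 the second was -0.061 (exact permutation p = 0.119 and 0.262). The first shrank to -0.086 (exact permutation p = 0.238) without the 3 libraries of low ratio, which were left out because of their values.

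In the 2 libraries with the lowest ratios another identifier was present. ENSMUST00000209735, which no table used here pairs with a gene, had a signal of 158 in AngII replicate 5 and 224 in AngII+neferine replicate 4. In the other 15 libraries it was at most 0.00233 and it was listed at 0 in 9 of them. At the median Control ratio of 1.19, the Col4a1 signal of these libraries fell short of that set by Col4a2 by 188 and 231. This identifier was found by searching the table after the ratios were seen, as the only transcript at 50 or more in both libraries and under 1 in all others. Over all 17 libraries its signal had a Pearson correlation of 0.874 with the Col4a1 shortfall, the highest of the 2475 transcripts that reached 50 in any library, and the next was at 0.840. AngII replicate 6 went against this match, with a shortfall of 128 and the identifier at 0, and without that library the values were 0.952 and 0.920. Only 2 libraries carry that correlation. Since the identifier was picked for being high in those 2, its high rank follows largely from that choice.

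With ENSMUST00000209735 added, the ratio to Col4a2 was 1.07 in AngII replicate 5 and 1.17 in AngII+neferine replicate 4, within the range of the other libraries. AngII replicate 6 stayed at 0.699, where ENSMUST00000209735 was listed at 0. The summed signal averaged 245 ± 16.1 (SD, n = 5) for Control, 262 ± 118 (SD, n = 6) for AngII and 276 ± 88.9 (SD, n = 6) for AngII+neferine. With the sum in place of Col4a1, the order of the means thus became Control, AngII, AngII+neferine, and the log2 difference between AngII+neferine and Control turned from -0.10 to 0.10 (limma, adjusted p = 0.952). The SD of log2(value + 1) of the sum was 0.702 in AngII and 0.505 with neferine, against 0.0934 in Control. The reference annotation places Col4a1 and Col4a2 as neighbours whose extents overlap at one end by only 85 bases (RefSeq, GRCm38.p6). It also lists 1 gene that starts between their start positions. Whether the signals were counted by strand is not given in the sources used here, and a part of the overlap in the ratios was not tested.

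**Figure D4:**
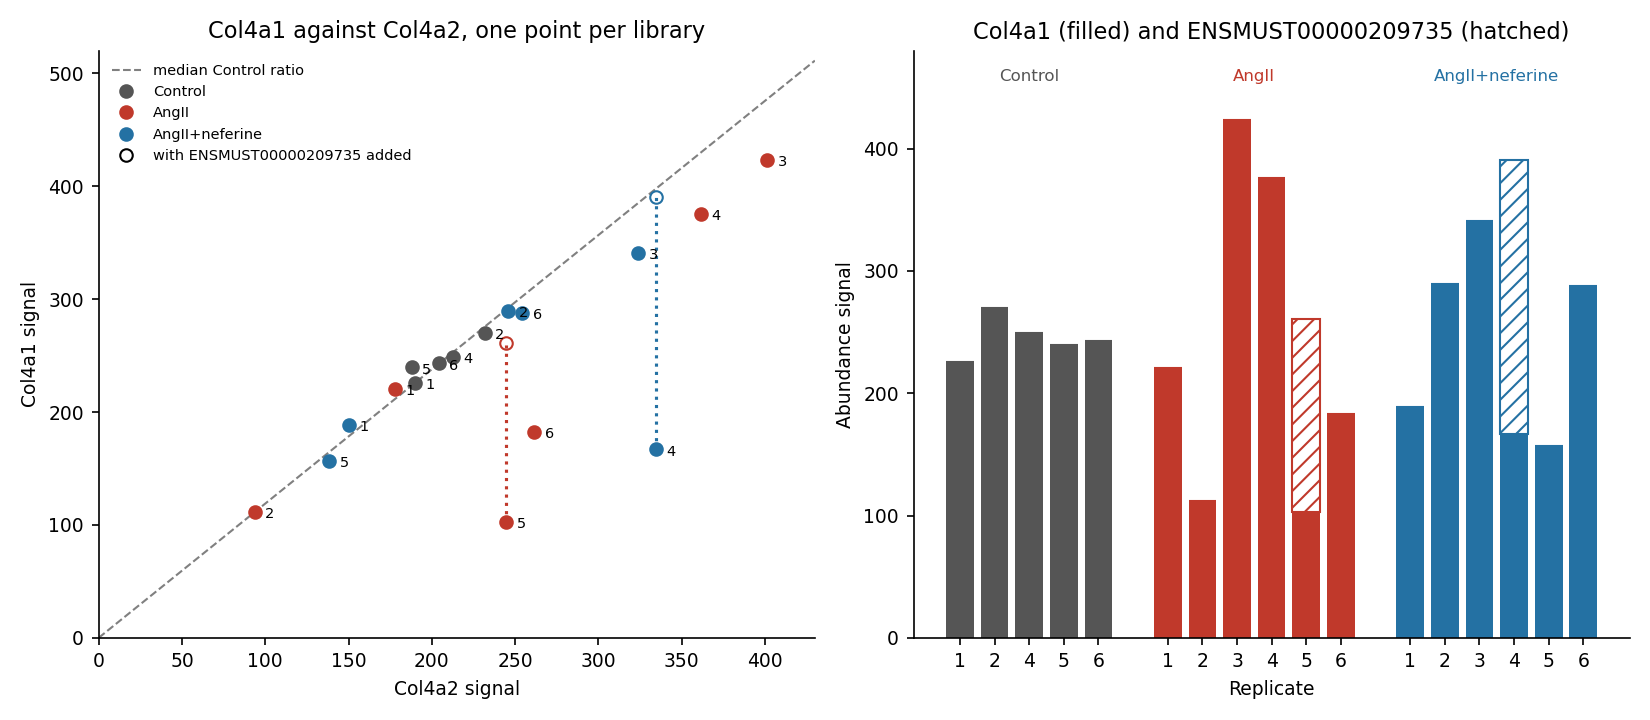
Left, Col4a1 against Col4a2 signal in each library, with the median Control ratio as a dashed line and open circles where ENSMUST00000209735 was added; right, Col4a1 signal (filled) and ENSMUST00000209735 signal (hatched) stacked per library. AngII replicate 5 and AngII+neferine replicate 4 move from ratios of 0.420 and 0.498 to 1.07 and 1.17, and AngII replicate 6 stays below the line.

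The 4 transcripts ranked the libraries in partly similar order. Over 17 libraries, which share their scaling, Lamc1 and Nid1 had a Spearman rho of 0.650, Col4a2 and Nid1 of 0.615, Col4a2 and Lamc1 of 0.581 and Col4a1 and Col4a2 of 0.578. Col4a1 had a rho of 0.542 with Nid1 and 0.319 with Lamc1. The median rho of each of the 4 with all other tested transcripts lay between 0.0053 and 0.0837. With ENSMUST00000209735 added to Col4a1, its rho was 0.855 with Col4a2, 0.799 with Nid1 and 0.760 with Lamc1. Since the identifier was picked for being high where Col4a1 fell short of Col4a2, the rise in rho with Col4a2 follows largely from that choice. The rises with Lamc1 and Nid1 come from the same libraries, AngII replicate 5 and AngII+neferine replicate 4. Counted from the lowest of 17, these ranked 15 and 16 for Lamc1 and 8 and 15 for Nid1, against 1 and 4 for Col4a1. Without the 3 libraries that stand apart, the rho of Lamc1 and Nid1 was 0.473 and that of Col4a2 and Nid1 was 0.776 over 14 libraries. Over the same 14, Col4a1 had a rho of 0.644 with Col4a2 and 0.530 with Nid1 but only 0.130 with Lamc1. That of Col4a2 and Lamc1 was 0.640.

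None of the 4 was the nearest transcript to another. The nearest is the highest of 29982 rho values over 17 libraries, and a high rho can arise by chance among so many. Whether the values below exceed chance was not tested. Col4a2 ranked 211th of 29982 in likeness to Col4a1, and Nid1 ranked 526th in likeness to Lamc1. The transcripts most like Col4a1 were ENSMUST00000041110 (rho 0.862 over 17 libraries) and MERGE.48667.2 (rho 0.810), one of the identifiers that do not come from Ensembl. Both were low, with signals of at most 8.11 and 6.19. MERGE.48667.2 was listed at 0 in several libraries of each treated group, so its rho rests in part on ties. Those most like Col4a2 were ENSMUST00000061799 (rho 0.912) and ENSMUST00000000707 (rho 0.895). For Lamc1 they were ENSMUST00000026296 and MERGE.4615.1 (both rho 0.909), and for Nid1 they were MERGE.20771.2 (rho 0.934) and ENSMUST00000189017 (rho 0.922). MERGE.4615.1 was listed at 0 in AngII replicate 6 and AngII+neferine replicates 1 and 6. The signal of MERGE.20771.2 was low, from 0.401 to 2.18. Within AngII, ENSMUST00000061799 rose with Col4a2 from 74.2 in replicate 2 and 95.2 in replicate 1 to 200 and 243 in replicates 3 and 4. Within Control it followed Col4a2 less closely. It was highest in replicate 1, at 158, where Col4a2 was 190, and was 138 in replicate 2, where Col4a2 was highest at 232. It was also the transcript most like Col4a2 with median-of-ratios scaling (rho 0.902) and without the 3 libraries that stand apart (rho 0.916). The nearest transcript of the other 3 changed under at least one of these settings. With scaling it was MERGE.48667.2 for Col4a1 (rho 0.833) and ENSMUST00000166347 for Lamc1 (rho 0.939), while that of Nid1 stayed MERGE.20771.2 (rho 0.926). Over the 14 libraries it was ENSMUST00000092162 for Col4a1 (rho 0.881), and ENSMUST00000045847 for Lamc1 and ENSMUST00000022699 for Nid1 (both rho 0.916). No gene name was available for these identifiers.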

How the data were processed

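Per the labels' protocols, total RNA of the abdominal aorta was depleted of ribosomal RNA and sequenced as Illumina libraries. The deposited files hold a linear abundance signal per transcript in a unit that their headers do not name. The aligner, assembler, quantifier, build and annotation were not given in the sources used here. Limma is named, with no role or version, in the submitters' processing notes. Groups and replicate numbers come from the sample titles.

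The 39614 transcripts listed in all files were joined, and those that reached 1 in at least 5 libraries were kept. Values were tested as log2(value + 1), a scale that understates changes of low transcripts, with limma 3.58.1 in R 4.3.3 (trended, robust empirical Bayes, all 17 libraries, a term per group) and Benjamini-Hochberg adjustment over 29983 transcripts at a threshold of 0.05. The design provided a count test for counts, and the limma branch applied. The fit was run on simulated data with independent noise of the same SD in every group. That run does not cover groups of unequal spread or libraries that stand apart. Exact permutation tests used scipy 1.17.1.

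The members and lists were chosen with earlier results of these data known. The rule for named genes was the 4 members and the 2 transcripts most like each. Planned marker and pathway lists were not tested, for want of gene names, and no sequence is shown. Alternatives changed the pseudocount, filter, scaling, moderation, weights, block and libraries.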

Additional observations from a re-analysis of the deposited data

Results flagged for a closer look

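In 18 groups of 5 or 6 values examined (4 transcripts and 2 ratios in 3 groups), 5 had a library far from the others by its gap relative to the range, where chance gives about 5% of groups. The flags share libraries and quantities and are not independent. That of Control replicate 5 is counted for both ratios, whose values are nearly the same in Control.

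The Lamc1 signal of AngII+neferine replicate 1, 28.2, lay far below the other 5 (50.4 to 62.3). That library also had 29.0% of its signal in its 10 highest transcripts, and the part of this in the low Lamc1 value was not tested. After median-of-ratios scaling its Lamc1 value was 31.0, still the lowest of its group.

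The Col4a1 to Col4a2 ratio of AngII+neferine replicate 4, 0.498, lay far below the others (1.05 to 1.25), with ENSMUST00000209735 at 224 in the same library. The ratio of Control replicate 5, 1.27, lay above the other Control libraries (1.16 to 1.19), with and without ENSMUST00000209735 added. With that identifier added, AngII replicate 6 was the low library of its group, at 0.699, and it is also the library with the lowest correlation with the others.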

How the results depend on the processing

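No member was called in any of the 3 comparisons under any of the alternatives run, and no ratio difference passed after adjustment; adjusted p for members was 0.415 at the lowest (Nid1, AngII+neferine against Control, without the 3 libraries that stand apart). Signs of these undetected differences changed often. Without those 3 libraries, AngII against Control gave 0.00074 for Col4a1 and 0.12 for Lamc1, AngII+neferine against AngII gave -0.0502 for Col4a1 and -0.11 for Lamc1, and AngII+neferine against Control gave 0.012 for Lamc1. Library weights gave 0.022 and -0.097 for Lamc1 in the first 2 comparisons. For Nid1 between AngII and Control, the sign changed with a pseudocount of 0.1 (-0.0013), equal totals (-0.11), the replicate block (-0.083) and without AngII 5 and neferine 4 together (-0.012). With ENSMUST00000209735 added, Col4a1 was 0.0998 between AngII+neferine and Control. The last 2 settings, the replicate block for the ratio, and leaving out AngII 5 or the low-ratio libraries for the spread, shortfall or ratio, were chosen after seeing the data. The cause of these changes was not tested.

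Leaving out single libraries gave ranges between AngII and Control of -0.47 to -0.06 for Col4a1, 0.021 to 0.44 for Col4a2, -0.27 to -0.0064 for Lamc1, -0.15 to 0.20 for Nid1 and -0.54 to -0.22 for the Col4a1 to Col4a2 ratio. Between AngII+neferine and AngII the range was -0.044 to 0.36 for Col4a1, -0.28 to 0.13 for Col4a2, -0.14 to 0.19 for Lamc1, 0.13 to 0.48 for Nid1 and -0.037 to 0.38 for the ratio, whose sign changed without AngII replicate 5. Between AngII+neferine and Control it was -0.22 to 0.0034 for Col4a1, 0.046 to 0.30 for Col4a2, -0.21 to 0.012 for Lamc1, 0.23 to 0.48 for Nid1 and -0.33 to -0.061 for the ratio. Over all transcripts, without AngII replicate 6 limma called 12, 11 and 31 in the 3 comparisons, and without the 3 libraries that stand apart 6, 15 and 106. For AngII+neferine against Control other settings gave 0 (replicate block) to 63 (library weights).

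Same-numbered libraries did not deviate together (correlations of -0.147 to 0.064 over 16 pairs), so the numbers were not taken to pair them. The replicate block left 0 members called in each comparison and the ratio differences at -0.49, 0.18 and -0.28. The read depth behind the signals is unknown.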
